A study of Mus musculus with 4 samples.

Results

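The cells described here were cells of the mouse lung that carried marker genes of contractile perivascular cells, the pericytes and smooth muscle cells. A member was a cell with at least 1 transcript, counted as a unique molecular identifier (UMI), of 3 or more of the 8 genes Myh11, Cnn1, Des, Cox4i2, Notch3, Rgs5, Cspg4 and Acta2, and with 0 UMIs of Ptprc, Epcam and Pdgfra, genes of leukocytes, epithelium and fibroblasts. There were 178 members among 28153 cells that passed the limits on quality (between 200 and 5000 genes, both ends left out, with mitochondrial UMIs below 8% and a total of no more than 25000 UMIs), out of 34037 barcodes. These limits follow those of the study, yet they left more cells than the study gives. The members were chosen by the UMI counts of these markers and excluded genes, so the levels of the 8 genes are given as a description only.

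The study profiled whole lung of C57BL/6 mice, wild type and male by the labels, by droplet single-cell RNA sequencing of the 3′ end of transcripts. There was 1 library at each of 4 ages: newborn (NB, 10 days), 2 months (2 M), 10 months (10 M) and 18 months (18 M). Lungs were digested with collagenase D and DNase1 and dead cells were removed, and how many animals each library held was not given in the sources used here. With 1 library per age, no difference between ages has a replicate check, so none was tested, and intervals cover counting error only.

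Smooth muscle wraps the airways and the larger vessels of the lung and contracts when myosin light chain kinase (Mylk) phosphorylates the light chain of smooth muscle myosin (Myh11), which then pulls on actin filaments (Acta2, Actg2). Pericytes sit on capillaries inside the basement membrane they share with the endothelium, and they depend on PDGF-B signalling to Pdgfrb and on Notch3. The smooth muscle programme is switched on by myocardin (Myocd), a coactivator of serum response factor (Srf), which binds the CArG box, a short AT-rich element in the promoters of contractile genes.

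The CArG box was searched for, on both strands, in the 250 bases before the transcription start of each gene with a RefSeq promoter (GRCm38.p6). It stood in 1.62% of 27025 genes, and in 1.75% of the 5267 with a promoter that were tested in the comparison of members with fibroblasts below. Among genes higher in the members it stood in 23 of 546 (4.21%), among genes lower in 13 of 638 (2.04%), and among genes that did not pass the test in 56 of 4083 (1.37%). These shares are a description of sequence and not of binding. The stretches below are shown because they are the contractile genes with a box, Myl9 and Vcl, and the 4 other genes with a box that stood highest above fibroblasts, Asb2, Actc1, Myom1 and Ldb3. Each is printed 5′ to 3′ on the strand of its gene, and capitals mark the CArG box.
Myl9: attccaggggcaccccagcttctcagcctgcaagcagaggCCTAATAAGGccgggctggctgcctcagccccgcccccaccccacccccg
Vcl: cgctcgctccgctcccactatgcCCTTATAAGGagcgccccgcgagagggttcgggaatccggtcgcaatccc
Asb2: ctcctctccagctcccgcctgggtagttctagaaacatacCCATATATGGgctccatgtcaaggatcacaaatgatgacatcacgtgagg
Actc1: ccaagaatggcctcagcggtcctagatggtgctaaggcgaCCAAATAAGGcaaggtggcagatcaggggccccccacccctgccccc
Myom1: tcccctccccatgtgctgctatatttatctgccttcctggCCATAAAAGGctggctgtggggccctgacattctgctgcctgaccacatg
Ldb3: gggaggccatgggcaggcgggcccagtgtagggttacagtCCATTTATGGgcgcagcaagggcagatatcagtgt
The stretches lie at chr2:156775263-156775352 (Myl9, plus strand), chr14:20929148-20929220 (Vcl, plus), chr12:103356016-103356105 (Asb2, minus), chr2:114052876-114052962 (Actc1, minus), chr17:71019418-71019507 (Myom1, plus) and chr14:34588682-34588756 (Ldb3, minus). The box began 161 bases before the start of Myl9 and 227 before that of Vcl, and 64, 47, 99 and 35 bases before those of Asb2, Actc1, Myom1 and Ldb3. Myl9 encodes the regulatory light chain of smooth muscle myosin, Vcl the adhesion protein vinculin, Actc1 cardiac actin, Myom1 the sarcomere protein myomesin and Ldb3 a Z-disc protein. Of the contractile genes, 17 had a promoter window and 2 held the box, against 0 of 14 fibrillar collagen and collagen-processing genes. Myh11, Tagln and Actg2 had no window to search.

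Members were rare in every library. They made up 47 of 6377 cells at NB (0.737%, 95% exact interval 0.542 to 0.979), 18 of 5537 at 2 M (0.325%, 0.193 to 0.513), 37 of 7862 at 10 M (0.471%, 0.332 to 0.648) and 76 of 8377 at 18 M (0.907%, 0.715 to 1.13). The 2 M library gave the fewest, and 8 of its 18 members held only 3 markers, so that a minimum of 4 markers left 0.181% there. Median depth was 8327, 5354.5, 12204 and 7896 UMIs per member in order of age, and summed depth ran from 117769 UMIs at 2 M to 596744 at 18 M. No member barcode occurred in more than 1 library.

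At the edge of the rule, 24 members held 3 markers and 39 further cells held 2. Tagln, an actin-binding protein of smooth muscle that the rule did not use, was present in 18 of the 24 and in 24 of the 39, while Dcn, a fibroblast proteoglycan, was present in 7 of the 24 and in 23 of the 39.

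The library labelled 18 M stood apart in a way that touches every age comparison. Although the labels give males only, Xist was present in 30 of its 76 members and Y-linked transcripts in 36, with 2 cells holding both and 12 neither. Xist was at 0 in the members of the other libraries, where Y-linked transcripts were present in 37, 13 and 25 members at NB, 2 M and 10 M. For Eln and the basement membrane list, results are therefore also given for the 34 members of the 18 M library with Y-linked transcripts only and the 28 with Xist only. The other age results are given for all members of that library, without this split.

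RNA of other cell types was present in some members. Summed over members and scaled to 1000000 UMIs (CPM), the 12 endothelial markers, Pecam1 and Cdh5 among them, came to 791, 832, 278 and 77.1 CPM in the 4 libraries from NB to 18 M, and Pecam1 was present in 18 members. The 7 erythroid and platelet markers came to 8267, 306, 1479 and 21262 CPM, with haemoglobin at 80.0% of UMIs in 1 member of the 18 M library and at 37.5% in 1 of the NB library. The 10 epithelial markers came to 141, 93.4, 94.4 and 2234 CPM, the last mostly from 1 cell that held 86.4% of the Sftpc UMIs. The 12 leukocyte markers stayed at 49.7 to 196 CPM, against 8957 to 18719 CPM in leukocytes. Leaving out the 23 members with the most RNA of other cells (10, 2, 2 and 9) was tried for the comparison with fibroblasts, the marker pairs and the age ratios, a choice made after seeing the data.

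Smooth muscle genes that the rule did not use were present at high levels, while genes of the pericyte list ranged from common to nearly absent. Tagln was present in 170 of the 178 members, Tpm2 (a tropomyosin) in 167, Myl9 in 161 and Mylk in 166. Among the rule's genes, Myh11 was present in 93.6%, 61.1%, 97.3% and 96.1% of members from NB to 18 M, Cspg4 (the NG2 proteoglycan) in 48.9%, 38.9%, 56.8% and 59.2%, and Cox4i2, a subunit of the respiratory chain, in 25.5%, 22.2%, 27.0% and 15.8%. With each cell thinned to 1000 UMIs, Cox4i2 was present in 2.13%, 11.1%, 8.33% and 1.39%. Higd1b, a mitochondrial gene and a defining pericyte marker, gave 14 UMIs in 4 members, and the cation channel Trpc6 gave 8 UMIs in 5. Lamc3 gave 3 UMIs, Vtn 2 and Anpep 1. Other genes of the pericyte list were common. Pdgfrb was present in 51%, 67%, 49% and 47% of members from NB to 18 M, and in 35% to 54% of fibroblasts. Notch3, a gene of the rule, was present in 68%, 28%, 51% and 67% of members. For Higd1b, Trpc6, Lamc3, Vtn and Anpep the pericyte side of the label thus rested on few cells, and the cells are called members below.

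**Figure D1:**
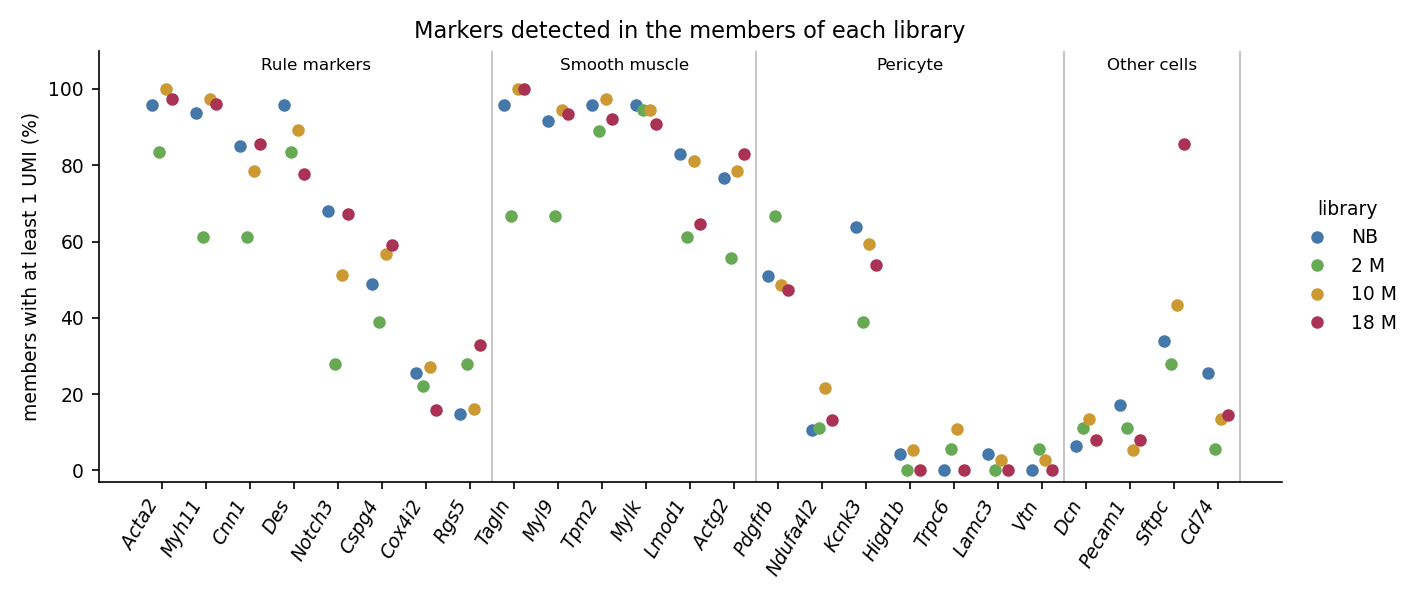
Percentage of members with at least 1 UMI of each gene, by library (points, with the 4 libraries in colours), for the markers of the rule, smooth muscle genes, pericyte genes and genes of other cell types. Smooth muscle genes sit high, lowest at 2 M except for Mylk, while Higd1b, Trpc6, Lamc3 and Vtn lie between 0 and 10.8%. Pdgfrb lies between 47% and 67%.

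Most members with Cox4i2 or Cspg4 also held Myh11 or Cnn1. Myh11 or Cnn1 was present in 167 members and Cox4i2 or Cspg4 in 115, and 106 cells held a gene of each pair. A further 61 held Myh11 or Cnn1 alone (18, 7, 11 and 25 from NB to 18 M), 9 held Cox4i2 or Cspg4 alone (2, 3, 1 and 3) and 2 held neither. No library had 10 cells with Cox4i2 or Cspg4 alone, so smooth muscle and pericyte cells could not be compared by a test. The rule asked for 3 of the 8 markers in 1 cell, so it favoured cells with several of them, and 1 UMI counted as present. With each cell thinned to 1000 UMIs, Cspg4 was present in 19.2%, 16.7%, 11.1% and 11.1% of members and Cox4i2 in 2.13%, 11.1%, 8.33% and 1.39%.

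The 9 cells with Cox4i2 or Cspg4 alone are given by their summed values, 47147 UMIs in all. Tagln stood at 467 CPM in them, against 6795 CPM in the cells with Myh11 or Cnn1 alone and 11175 CPM in the cells with both pairs. Pdgfrb, the receptor for PDGF-B, stood at 445 CPM (exact Poisson interval 276 to 681), against 75.1 and 110 CPM. Of its 21 UMIs, 14 came from 1 cell of the 2 M library, and without that cell Pdgfrb stood at 154 CPM. The deepest cell, from the NB library, gave 44.1% of the UMIs of the 9 cells and held 73 UMIs of endothelial markers and 92 of Cd74. Higd1b gave 8 UMIs in 2 of the 9 cells, and Hhip gave 24 UMIs in 2 cells of the 2 M library. Dcn stood at 1357 CPM against 207 and 21.3 CPM, from 64 UMIs in 2 of the 9 cells, 63 of them in the 2 M library. In all, 3 of the 9 cells were among the members with the most RNA of other cells, and its part in these values was not tested.

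Members were next compared with fibroblasts of the same library. These were chosen as stromal cells like the members, a likeness that was assumed and not measured. Fibroblasts were cells with Pdgfra and at least 2 of Dcn, Lum, Col1a1 and Col1a2 and without Ptprc and Epcam, and there were 79, 66, 192 and 91 of them from NB to 18 M. UMIs were summed per library, so the 4 libraries served as replicates of the cell type difference, with the library as a block. The edgeR quasi-likelihood test with Benjamini-Hochberg adjustment found 703 of 6801 genes higher in members (10.3%) and 851 lower (12.5%), with a median log2 fold change over all genes of 0.0024. Genes that chose either kind of cell are left out of the counts below. Each count of a gene list stands beside the 10.3% and 12.5% called over all genes. Those 8 markers tend to occur with other contractile genes, so the direction of that group is not independent of the choice of cells. Smooth muscle RNA in fibroblasts was low but present, and 15 fibroblasts (12 of them in the 18 M library) held 3 or more of the 8 markers.

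All 16 contractile genes tested, of 21 listed, were higher in members, with a median log2 fold change of 2.75. Tagln stood at 10707, 5086, 17208 and 4949 CPM in members from NB to 18 M, against 135, 56.9, 215 and 205 CPM in fibroblasts. The groups did not overlap, and the log2 fold change was 5.88 ± 0.44 (SE, 4 libraries, adjusted p = 0.00221). Here and below the fold change is the value fitted by edgeR. The SE is that of the differences of the single libraries, so it is not the error of the fit. Myl9 gave 3655, 1342, 4754 and 1424 CPM against 63.0, 52.8, 93.0 and 75.0 (5.08 ± 0.43, adjusted p = 3.52e-05). Lmod1, leiomodin of the thin filament, gave 559, 382, 649 and 258 CPM against 8.59, 5.42, 6.36 and 1.85 (6.41 ± 0.22, adjusted p = 1.01e-08). Each of these had its lowest member value at 2 M or 18 M, and each stayed above the highest fibroblast value. Actg2, enteric smooth muscle actin, gave 731, 323, 1583 and 675 CPM in members and at most 5.73 CPM in fibroblasts. The smallest difference printed here was that of Vcl, at 255, 340, 306 and 392 CPM against 102, 103, 150 and 115 (1.41 ± 0.15, adjusted p = 7.48e-05).

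Of 18 transcriptional regulators tested, 5 were higher and 4 lower, and their median was -0.02. Myocd stood at 149, 110, 132 and 159 CPM in members and was present in 103 of them, while in fibroblasts it gave 0, 0, 0.489 and 1.85 CPM (log2 fold change 7.37 ± 0.40, adjusted p = 5.82e-08). Its partner Srf did not pass the test (58.0, 34.0, 57.2 and 127 CPM against 65.9, 77.2, 65.1 and 49.1, adjusted p = 0.782). Hey2, a Notch target that acts in vascular smooth muscle, rose by 3.30 on the log2 scale, and Csrp2, a LIM protein of smooth muscle, by 1.65. Tcf21 and Meox2, transcription factors of lung fibroblasts and of mesoderm, were lower, with log2 fold changes of -2.87 and -3.78. The regulators thus divided, with the coactivator Myocd far above fibroblasts and the broadly used Srf without a shared direction over the libraries. Srf was higher in members of the 18 M library (127 against 49.1 CPM). It was lower in members of each other library, by most at 34.0 against 77.2 CPM.

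The pericyte list was split as well. Of 16 genes tested, 7 were higher, 5 lower and 4 did not pass, with a median log2 fold change of 0.43. Pdgfrb stood at 93.2, 246, 84.5 and 119 CPM against 53.0, 89.4, 67.5 and 88.9 in fibroblasts (0.67 ± 0.22, adjusted p = 0.0408), a small difference with ranges that overlapped. Larger were Mcam, an adhesion molecule of mural and endothelial cells, with 373, 178, 383 and 504 CPM against 0 to 12.0 (6.78 ± 0.69), and the potassium channel Kcnk3, with 141, 102, 122 and 141 CPM against 0 to 7.41 (5.69 ± 0.67). Both are also genes of vascular smooth muscle. The subunits of soluble guanylate cyclase, the receptor for nitric oxide, were higher by 4.61 (Gucy1a3) and 4.66 (Gucy1b3) on the log2 scale. Lower in members were the peptidases Anpep (-5.52) and Enpep (-2.52), the laminin chain Lamc3 (-4.79), the stromal surface protein Cd248 (-3.56) and the channel subunit Abcc9 (-0.81, adjusted p = 0.0223). Ndufa4l2, a mitochondrial pericyte gene, gave 26.9, 25.5, 44.7 and 26.8 CPM against 11.5, 47.4, 26.9 and 35.2 and did not pass (adjusted p = 0.771).

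Receptors and channels that set the tone of smooth muscle were mostly higher. Of 14 vasoactive receptor and cyclic nucleotide genes tested, 11 were higher and 0 lower, with a median of 2.33. Ednrb, an endothelin receptor, gave 133, 280, 129 and 295 CPM against 0, 1.36, 1.47 and 1.85 (7.01 ± 0.36, adjusted p = 2.34e-08), whereas the other endothelin receptor Ednra stood at 68.3, 50.9, 44.7 and 58.7 CPM against 74.5, 52.8, 57.7 and 60.2 and did not pass (adjusted p = 0.577). Mrvi1, a substrate of cGMP-dependent protein kinase, gave 85.5 to 142 CPM against at most 0.926. Of 12 ion channel and calcium genes tested, 9 were higher and 2 lower, with a median of 1.95. Kcnmb1, the beta subunit of the large-conductance calcium-activated potassium channel, gave 91.1, 67.9, 206 and 48.6 CPM against 0, 0, 0.489 and 0, and its pore Kcnma1 gave 51.8, 50.9, 24.8 and 31.8 CPM against 0, 0, 0 and 0.926. The L-type calcium channel Cacna1c rose (2.53 ± 0.18), while its relative Cacna1d was lower (-2.24 ± 0.26).

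Genes ascribed to airway and to vascular smooth muscle were both higher than in fibroblasts. Of the airway list 3 of 4 tested genes were higher and of the vascular list 5 of 6, and 0 were lower in either. Hhip, which binds hedgehog ligands (chr8:79965851-80058006 on GRCm38, minus strand), gave 93.2, 603, 102 and 233 CPM against 18.6, 74.5, 43.5 and 86.1 (1.89 ± 0.38, adjusted p = 0.000413). Lgr6, a receptor of R-spondins, rose by 5.92 on the log2 scale and Map3k7cl by 7.92. The gap in Ntrk3, a neurotrophin receptor, did not pass, with 147, 187, 107 and 238 CPM against 4.30, 6.78, 0 and 52.8 (adjusted p = 0.0608). Genes of both kinds were therefore present in the summed members.

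In the Notch list 3 of 8 tested genes were higher and 0 lower: Hey2, the ligand Jag1 (1.18) and the target Hes1 (0.70). In the PDGF list Pdgfa, a ligand for Pdgfra on fibroblasts, stood at 174, 102, 174 and 206 CPM against 50.1, 37.9, 47.5 and 52.8 (1.77 ± 0.17, adjusted p = 2.13e-05). Angpt2, an antagonist of the endothelial receptor Tie2, rose by 2.43 on the log2 scale and its agonist Angpt1 was lower (-0.83, adjusted p = 0.0409). Members thus carried more of the antagonist and less of the agonist than fibroblasts, though Angpt1 was lower in 3 of 4 libraries only.

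Matrix genes moved apart by type. Among 16 basement membrane genes tested, 7 were higher and 6 lower, with a median of 0.02. The 7 higher became 2 without the NB library, 3 without 10 M, 3 without 18 M, 2 without the library block, 3 with DESeq2's Wald test and 4 without a filter on low counts. Lama5, a laminin chain of vessel walls, gave 80.8, 42.5, 37.3 and 226 CPM against 1.43, 8.13, 2.94 and 11.1 (3.94 ± 0.69, adjusted p = 4.55e-06), Col18a1 was higher by 2.93 (adjusted p = 0.015) and Col4a1, the main collagen of basement membrane, by 0.56 (adjusted p = 0.0255). Lower were the laminin chains Lamb1 (-3.96) and Lama2 (-2.31) and the linker nidogen Nid1 (-2.52). Of 20 fibrillar collagen and processing genes tested, 0 were higher and 13 lower (median -1.16; 4 lower without the library block), and of 16 elastic fibre genes 1 was higher (Ltbp1, 0.75) and 9 lower (median -1.53). Fbln1, of the elastic fibre list, stood at 10.4 to 50.9 CPM against 508 to 946 (-5.10 ± 0.22), and Emilin2 of that list, named below, fell further. Eln, tropoelastin, did not pass (0.43 ± 0.92, adjusted p = 0.798). It stood at 1025, 807, 1660 and 30556 CPM in members and at 188, 2787, 1168 and 20312 CPM in fibroblasts, with the 18 M library far above the others in both cell types.

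Secreted ligands were lower on the whole, 15 of 28 tested against 3 that were higher, with a median of -1.46. Lower were the eosinophil chemokine Ccl11 (0 to 8.49 CPM against 215 to 417), Igfbp6 (-5.84), Fgf10 (-4.13), Igf1 (-2.64), Il6 (-2.53) and, by less, Cxcl12 (-0.65, adjusted p = 0.0403). The 3 that were higher were Ccl19, a chemokine for lymphocytes and dendritic cells (2.39 ± 0.23, adjusted p = 1.6e-05), Tgfb2 (1.12) and Tgfb1 (0.85). Ccl19 came from few cells, 23 of 178.

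Among all genes, those with the largest log2 fold changes above fibroblasts that rose in each library were Sost (a Wnt antagonist), Ptprz1, Actg2, Asb2, Pcp4l1, Mylk4, Actc1, Itih4, Kcnmb1 and Mrvi1, with fitted values of 9.66 down to 8.25. Sost gave 184, 42.5, 162 and 102 CPM in members, in 49 cells, and 0 UMIs in fibroblasts of all 4 libraries. Actc1 gave 1137, 195, 1384 and 1513 CPM against 11.5, 0, 0.978 and 1.85. The largest the other way were Dpep1, Inmt, Pi16, Apod, Il33, Gas7, Serpinf1, Slc38a5, Cxcl14 and Emilin2, from -11.32 to -8.02. Pi16, a marker of adventitial fibroblasts, gave 0, 0, 2.48 and 0 CPM against 500, 1028, 710 and 517. Where a cell type is at 0 in a library, the fitted fold change depends on the prior count and is no bound.

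**Figure D2:**
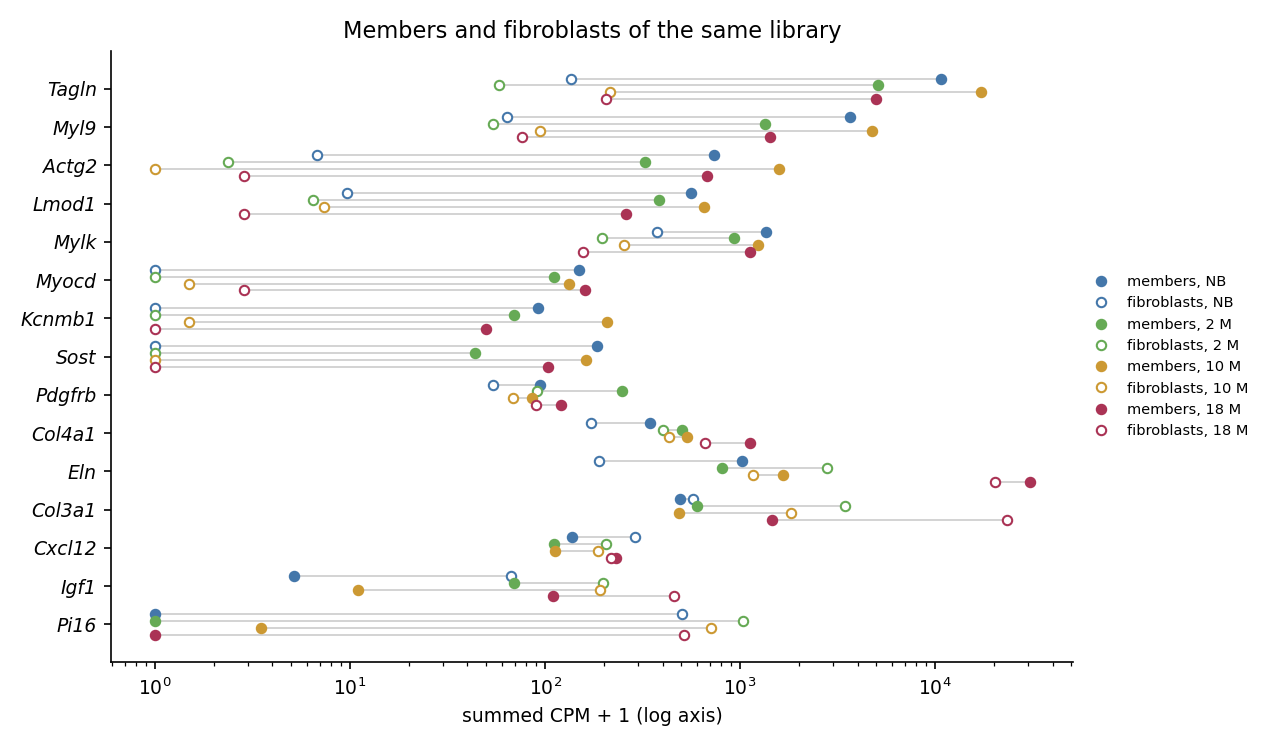
Summed CPM plus 1 (log axis) of 15 genes in members (filled) and fibroblasts (open) of the same library, joined by a line, with libraries in colours. Contractile genes, Myocd, Kcnmb1 and Sost lie to the right in members, Pi16 and Igf1 to the left, and Eln depends on the library, reaching 30556 CPM in the members of the 18 M library.

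The counts depended on the block and on single libraries. Without the library as a block 489 genes were higher and 556 lower, and leaving out a library gave 456 to 740 higher and 555 to 821 lower, the lowest of each without 10 M. Without the members rich in RNA of other cells, 716 were higher and 834 lower.

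Within the members, the planned contrast of smooth muscle with pericytes was replaced, after seeing the data, by cells with both marker pairs against cells with Myh11 or Cnn1 alone, in the NB, 10 M and 18 M libraries (26 against 18, 25 against 11 and 48 against 25 cells). Few genes differed: 9 of 3654 were higher with both pairs (0.246%) and 9 lower (0.246%). Cells with both pairs were deeper, with median UMIs of 11785.5 against 6481.5 at NB, 14207 against 5184 at 10 M and 8570 against 5491 at 18 M. Depth thus moved with this split, and its part in the differences was not tested beyond the thinned cells below.

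Cells with Myh11 or Cnn1 alone carried more Hhip. It stood at 272, 446 and 650 CPM in them at NB, 10 M and 18 M, against 12.4, 46.5 and 102 CPM in cells with both pairs, and the groups of values did not overlap. The log2 fold change was -3.18 ± 0.53 for both pairs against Myh11 or Cnn1 alone (adjusted p = 0.00041). Over all 4 libraries, Hhip was present in 22 of 61 cells with Myh11 or Cnn1 alone and in 8 of 106 with both pairs, although the latter were deeper. With each cell thinned to 1000 UMIs, Hhip was present in 2 of 18, 2 of 10 and 5 of 22 cells with Myh11 or Cnn1 alone and in 0 of 26, 2 of 25 and 3 of 48 with both.

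The other genes lower with both pairs were Cdh4 (a cadherin, -3.23), Tmem176a (-2.93), Igf1 (-2.74), Tgfbi (-2.63), Hmcn1 (-2.46), Gpx3 (-2.07), Tmem176b (-2.00) and Aspn (asporin, -1.43). Higher were Susd5 (2.80), Col15a1 (2.34), Cxcl2 (1.99), Fgl2 (1.98), Col18a1 (1.64), Tm4sf1 (1.43), Neat1 (1.38), Itga8 (1.07) and Eln (1.05). Col15a1, a collagen of the basement membrane zone, stood at 115, 166 and 501 CPM with both pairs and at 15.1, 35.7 and 111 CPM without (2.34 ± 0.13, adjusted p = 0.00916). Col18a1, of the same collagen family, stood at 492, 750 and 775 CPM against 212, 161 and 256 (1.64 ± 0.36, adjusted p = 0.0106). Eln stood at 1242, 1791 and 35851 CPM against 711, 928 and 14349 (1.05 ± 0.20, adjusted p = 0.0107), so the 18 M library was highest on both sides.

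Of 10 pericyte genes tested 0 were called, with a median of 0.40, in a fit that called 0.246% of all genes in each direction. Pdgfrb stood at 99.1, 93.0 and 129 CPM against 60.6, 17.8 and 89.9, higher in 3 of 3 libraries (fitted log2 fold change 0.85, SE of the library differences 0.60, adjusted p = 0.703). By library its log2 differences were 0.75, 2.54 and 0.73 at NB, 10 M and 18 M. Of 16 contractile genes, Itga8 (an integrin chain) was higher and 0 were lower, with a median of 0.42 beside 0.02 over all genes. Tagln gave 12020.2, 18577 and 5142 CPM against 9749, 9454 and 4647 (adjusted p = 0.531). Of the 4 airway genes tested Hhip was lower, of the 7 vascular genes 0 differed, and of 14 basement membrane genes Col15a1 and Col18a1 were higher. The calls depended on the libraries and the model: with the block removed, or without the 10 M library, edgeR called 0 genes in either direction, with 81 higher and 75 lower at an unadjusted p under 0.05 in the first case and 113 and 95 in the second. DESeq2's Wald test called 5 and 9, and without the 18 M library 48 and 46 were called.

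**Figure D3:**
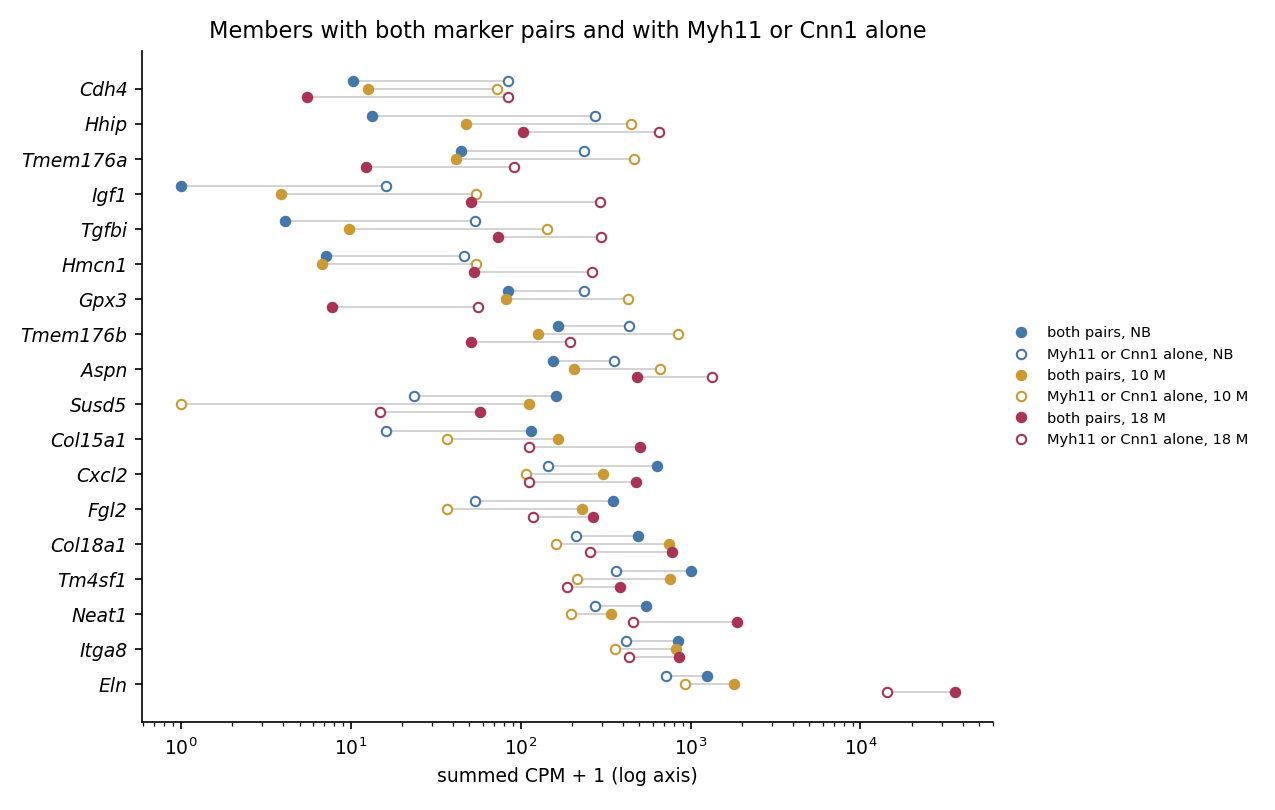
Summed CPM plus 1 (log axis) of the 18 genes that differed between members with both marker pairs (filled) and members with Myh11 or Cnn1 alone (open), by library (NB, 10 M and 18 M). The open points lie to the right for Hhip and the other 8 genes in the upper part and to the left for the 9 genes in the lower part, in each library.

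Across ages a wide gap was that of Eln (chr5:134702593-134747323 on GRCm38, minus strand), which encodes the core of the elastic fibres. It stood at 1025, 807, 1660 and 30556 CPM from NB to 18 M. The 18 M value rested on 18234 UMIs in 74 of 76 members, while the 2 M value rested on 95 UMIs, 68.4% of them in 1 cell. The ratio of 18 M to 10 M was 18.4 (exact interval 17.0 to 19.9) and that of 18 M to 2 M was 37.9 (31.0 to 46.8). Per cell the medians were 3.33, 0.681, 11.3 and 282 UMIs per 10000. In the 18 M library the median was 267 in members with Y-linked transcripts only and 295 in those with Xist only, so both kinds of cell were high. Eln stood at 189 CPM in leukocytes of the 18 M library, against 3.54 to 9.91 CPM in those of the others, and at 20312 CPM in its fibroblasts. Without members rich in RNA of other cells it was 32557 CPM.

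**Figure D4:**
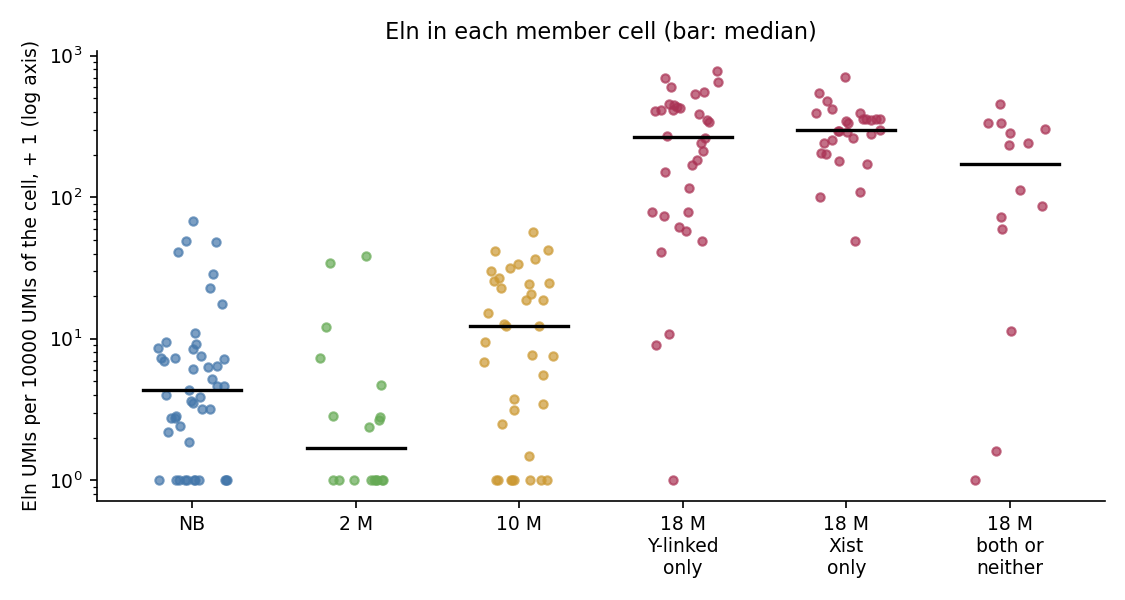
Eln UMIs per 10000 UMIs of each member cell, plus 1 (log axis), with a bar at the median, for the NB, 2 M and 10 M libraries and for the 18 M library divided by Y-linked and Xist transcripts. The medians of the 18 M cells with Y-linked transcripts only (267) and with Xist only (295) lie far above the 10 M median of 11.3.

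Collagens of the basement membrane and their partners were higher in the library labelled 18 M as well. Of 15 basement membrane genes with at least 10 UMIs in both libraries together, 9 were over 2-fold higher than at 2 M and 0 lower, with a median log2 ratio of 1.33; over all 3716 genes with at least 30 UMIs, 10.1% were over 2-fold higher, 7.56% over 2-fold lower and the median was -0.04. Against 10 M, 11 were over 2-fold higher and 0 lower (median 1.34), beside 13.1% and 9.17% of 4634 genes. Both ratios share the 18 M library. Col4a1 stood at 346, 501, 534 and 1129 CPM from NB to 18 M, with a ratio of 18 M to 10 M of 2.11 (1.81 to 2.48). Lama5 stood at 80.8, 42.5, 37.3 and 226 CPM (ratio to 10 M 6.07, 3.55 to 11.1) and Nid1 at 43.5, 59.4, 34.8 and 183 CPM (ratio to 2 M 3.07, 1.44 to 7.82). Lama4, the laminin chain of capillary walls, stood at 74.6, 170, 112 and 137 CPM, and its 18 M value was within 2-fold of those at 2 M and 10 M. The median against 2 M was 1.14 without members rich in RNA of other cells, 1.47 over Y-linked-only cells and 1.18 over Xist-only cells, and 2.23 over cells with Myh11 or Cnn1 alone. The last rested on 7 cells at 2 M, 5 of them with Hhip, and on 25 at 18 M, 9 of them with Hhip.

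Genes of fibrillar collagens and elastic fibres followed. Of 21 fibrillar collagen and processing genes, 10 were over 2-fold higher at 18 M than at 2 M and 1 lower (median 0.96), and of 13 elastic fibre genes 5 were higher and 2 lower (median 0.57). Over all 3716 genes the shares were 10.1% higher and 7.56% lower. Lox, the enzyme that crosslinks elastin and collagen, stood at 82.8, 76.4, 96.9 and 535 CPM (ratio of 18 M to 10 M 5.52, 3.95 to 7.90). Its relative Loxl1 stood at 133, 17.0, 189 and 335 CPM, and the 2 M value rested on 2 UMIs, so that its ratio to 2 M of 19.7 had an interval of 5.39 to 164. Fbln5, which guides elastin onto microfibrils, stood at 84.9, 42.5, 79.5 and 305 CPM. Col1a1 stood at 427, 425, 477 and 1619 CPM and Sparc, a collagen-binding matrix protein, at 1093, 1146, 1441 and 3836. Each of these genes was highest in the 18 M library, and 2 M or NB was lowest. Fibroblasts of the 18 M library held 20524 CPM of Col1a1 and 14012 CPM of Sparc, also their highest, and the part of free RNA in the member values was not tested.

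Contractile genes had another order, with 10 M highest. Acta2 (chr19:34241090-34255590 on GRCm38, minus strand) stood at 12529.6, 4848, 21768 and 4970.3 CPM from NB to 18 M, with a ratio of 18 M to 10 M of 0.228 (0.219 to 0.238). Tagln was likewise highest at 10 M, and its ratio of 18 M to 10 M was 0.288 (0.275 to 0.300). The list of 21 contractile genes included Acta2, Myh11, Cnn1 and Des, 4 genes of the rule. Its counts and medians by age are thus a description and are not independent of the choice of members. Of the 21, 0 were over 2-fold higher at 18 M than at 10 M and 10 over 2-fold lower (median -0.99). Over all 4634 genes 13.1% were over 2-fold higher and 9.17% lower, with a median of 0.07. Against 2 M, 10 of 20 were over 2-fold higher at 10 M (median 1.05, where 12.5% and 11.6% of 2794 genes were over 2-fold higher and lower). The same held for 7 of 21 at NB (median 0.87, beside 9.87% and 8.63% of 3221) and 2 of 21 at 18 M (median 0.08, beside 10.1% and 7.56% of 3716). In each, 0 contractile genes were over 2-fold lower. These ratios share the 2 M library. Hhip, a gene of the airway list, was present in 55.6% of 2 M members against 12.8%, 16.2% and 15.8% at NB, 10 M and 18 M (38.9% against 4.26%, 11.1% and 13.9% after thinning). The paper took Hhip as a marker of peri-bronchial fibroblasts, and here it was present in 8.86% to 36.3% of fibroblasts, by library. Acta2 had a median of 4.31 UMIs per 10000 in the 10 members of 2 M with Hhip and of 60.9 in the 8 without, and the part of these cells in the ratios to 2 M was not tested.

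These values varied with the members taken. Per cell, the median of Tagln was 104, 14.3, 147 and 43.0 UMIs per 10000, and single cells ranged from 1.50 to 383 at 10 M and from 5.13 to 101 at 18 M, so the ranges overlapped. Among cells with Myh11 or Cnn1 alone the contractile median of 18 M over 10 M was -0.04 and of 18 M over 2 M 1.64, while among cells with both pairs the latter was -0.60. In the pericyte-only cells it was -0.51, from 3 cells at 2 M and 3 at 18 M. The 18 M cell with haemoglobin at 80.0% of UMIs was among them. The direction of the contractile genes at 18 M against 2 M thus depended on which members were taken. At 2 M the cells with Myh11 or Cnn1 alone numbered 7, and 5 of them held Hhip, against 4 of 11 at 10 M and 9 of 25 at 18 M. The part of this mix of cells in the medians was not tested.

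**Figure D5:**
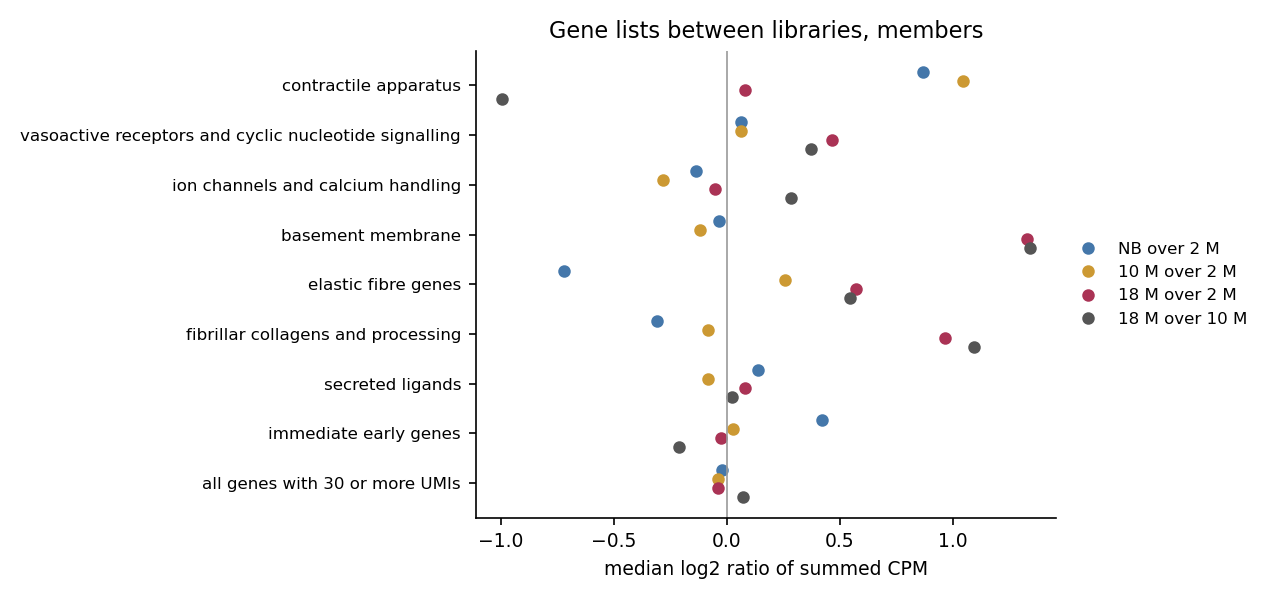
Median log2 ratio of summed CPM over the genes of each list, for NB, 10 M and 18 M over 2 M and for 18 M over 10 M, with all genes of at least 30 UMIs at the bottom. Basement membrane genes lie at 1.33 and 1.34 for the 18 M ratios, contractile genes at -0.99 for 18 M over 10 M and at 1.05 for 10 M over 2 M, and all genes near 0. The contractile list includes 4 genes of the rule.

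Of 17 vasoactive genes 4 were over 2-fold higher at 18 M than at 2 M and 0 lower (median 0.47), and the median of 14 ion channel genes was -0.05. Over all 3716 genes, 10.1% were over 2-fold higher and 7.56% lower, and the counts of this paragraph stand beside these shares. Of 9 vascular smooth muscle genes 5 were higher and 0 lower (median 1.16), among them Map3k7cl at 76.6, 59.4, 67.1 and 181 CPM. Olfr558, an olfactory receptor gene of vascular smooth muscle, gave 14 UMIs in 10 members of the 18 M library and 0 elsewhere. Of 17 pericyte genes 4 were over 2-fold higher and 4 lower (median -0.10). The 17 included Cox4i2, Notch3, Rgs5 and Cspg4, genes of the rule, so this count is a description only. Pdgfrb stood at 93.2, 246, 84.5 and 119 CPM, with 14 of the 29 UMIs at 2 M in 1 cell and 129 CPM there without it. Art3, an ADP-ribosyltransferase, gave 18, 3, 22 and 0 UMIs. With the limit of 3 UMIs that a count of 0 allows, its ratio of 18 M to 10 M was at most 0.0920.

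By a rule on ratio, cells and counts, the highest 18 M to 2 M ratios were those of Sftpc, Eln, Loxl1, Sfrp2, Sftpa1, Cd74, Ctxn1 and Sema3d. Surfactant gene Sftpc (45.6, 42.5, 54.7 and 1691 CPM) belongs to alveolar type II cells, with 86.4% of its UMIs at 18 M in 1 member, and it stood at 3765 CPM in leukocytes of that library, above its members. Sftpa1 had 90.6% of its UMIs and Cd74 41.3% in 1 member. Sfrp2, a secreted Wnt modulator, stood at 66.3, 17.0, 94.4 and 312 CPM, in 59 members in all, with 2 UMIs behind the 2 M value. Among the lowest ratios were those of Fmo2, H2-Q4, Enpp2, Ecm2, Nop58, Hmox1 and Tgfbr3. Fmo2, a flavin monooxygenase of the lung, stood at 362, 526, 258 and 16.8 CPM, a ratio of 18 M to 10 M of 0.0648 (0.0302 to 0.124), and at 1509.7, 974, 882 and 311 CPM in fibroblasts. Enpp2, autotaxin, stood at 209, 637, 186 and 88.8 CPM. Among secreted factors, Ccl19 stood at 151, 170, 69.6 and 13.4 CPM, and Igfbp3 at 39.3, 195, 54.7 and 1.68 CPM, the last from 1 UMI. Igfbp5 had no such order, at 435, 1843, 330 and 1481 CPM.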

How the data were processed

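Whole lung cells of 4 libraries, 1 per age, were measured by 10x Genomics 3′ sequencing. The authors deposited raw UMI counts per gene and cell, made with Cell Ranger 3.0.2 on mm10 and read into Seurat 2.0 per the submitters' processing notes. No doublet caller was run here, and the upper limits on genes and UMIs and the 3 genes required at 0 stood in its place. Members and gene lists were chosen with earlier results of these data known.

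Counts were summed per library and kind of cell. A sum entered a test with at least 10 cells. Tests used edgeR 4.0.16 (TMM, filterByExpr, library as block, quasi-likelihood, Benjamini-Hochberg adjustment, threshold 0.05), and DESeq2 1.42.0 served as an alternative. The libraries differ in age, so they are replicates of a cell type difference and not of an age, and p-values measure their spread. The labels give no replicate numbers, and both kinds of cell in a pair came from the same library. Their deviations correlated within each library (0.10 to 0.43 for members and fibroblasts, 0.16 to 0.35 for the marker pairs). Fits were also run on simulated counts with planted changes and a common dispersion for all genes, and their outcome is not reported here.

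Ages were compared by CPM of summed counts with exact Poisson 95% intervals and by ratios with exact binomial intervals, with 0.5 UMIs added for the medians of lists, without a test. Lists were taken with at least 10 UMIs over both libraries and all genes with 30. Genes of the rule were kept in the lists compared between ages. Named genes were the members of 28 gene lists (388 of 390 genes in the tables), the 10 largest fold changes each way moving alike in each library, and, for 18 M over 2 M, the 8 most raised and the 8 most lowered ratios (genes of 30 or more UMIs, in 10 or more cells, with an interval without 1), leaving out haemoglobin genes and Xist. PCR duplicates were collapsed by UMI. Some items are not reported here.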

Additional observations from a re-analysis of the deposited data

Results flagged for a closer look

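Signal outside the selected cells was present in 2 sets of barcodes that no comparison used. The first held 45 barcodes with 3 or more of the 8 markers and none of the 3 excluded genes that lay beyond the limits on cells (8, 9, 13 and 15 from NB to 18 M). Of these, 20 had too many genes or UMIs and 25 only too many mitochondrial UMIs. The second held 49 cells within the limits with 3 or more markers and a UMI of an excluded gene (7, 6, 7 and 29). Ptprc was present in 29 of them, Pdgfra in 21 and Epcam in 8.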

How the results depend on the processing

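With at least 4 markers the share of members at 2 M moved from 0.325% to 0.181%, and with 3 of the 7 markers other than Acta2 it was 0.217%. Without upper limits on cells the share at 10 M was 0.592% against 0.471%. Against fibroblasts, the 703 higher genes ranged from 456 to 740 over fits that left out a library in turn and the 851 lower genes from 555 to 821. Without a filter on low counts 1335 were lower, and without the library as a block (no pairing of the cells of a library) 556. The 20 genes with the largest fold changes kept direction and call in 220 of 220 values. They had been chosen from the main fit for passing it and moving alike in each library, so this is no independent check. List counts moved: the basement membrane genes called higher (7) were as few as 2, and the fibrillar genes called lower (13) were 4 to 16.

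For both marker pairs against Myh11 or Cnn1 alone, an alternative chosen after seeing the data, 9 and 9 calls became 5 higher with DESeq2, 51 higher and 32 lower without a filter on low counts, 0 and 0 without the library as a block, and 0 to 48 higher and 0 to 46 lower over fits that left out a library (0 without 10 M). Here the call was lost in 61 values and kept in 117 of the named genes, and the cause was not tested.

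The contractile list includes 4 genes of the rule. The contractile median of 18 M over 2 M (0.08) moved to 1.64 in cells with Myh11 or Cnn1 alone, to -0.51 in pericyte-only cells and to -0.60 in cells with both pairs. That of 18 M over 10 M (-0.99) moved to -0.044 and the basement membrane median over 2 M (1.33) to 2.23 in cells with Myh11 or Cnn1 alone. These settings use fewer cells, with 3 pericyte-only cells at 2 M and 3 at 18 M. Of the cells with Myh11 or Cnn1 alone, 5 of 7 held Hhip at 2 M and 9 of 25 at 18 M. Depth limits the 2 M library most, with 18 members and 117769 UMIs, and differences of genes with few UMIs there were not detectable.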

Other observations

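Respiratory chain genes were higher in members than in fibroblasts for 6 of 7 tested (median log2 fold change 0.57), where 10.3% of all 6801 genes were higher. Cox4i1, the common paralogue of Cox4i2 in complex IV, stood at 891, 705, 944 and 1212 CPM from NB to 18 M against 576, 432, 517 and 618 in fibroblasts (0.75 ± 0.10, edgeR with Benjamini-Hochberg adjusted p = 0.00136). Of 4 endothelial markers tested, Esam (30.2 to 37.3 CPM against 0 to 1.36) and Flt1 (25.1 to 93.4 CPM against 3.91 to 11.1) were higher and 0 were lower. Endothelial RNA was present in some members, and its part in these 2 genes was not tested.

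Imprinted growth genes were lower for 3 of 9 tested and higher for 0, where 12.5% of all 6801 genes were lower and 10.3% higher. Meg3, a long noncoding RNA, stood at 26.9, 866, 340 and 684 CPM in members from NB to 18 M and at 546, 1149, 716 and 2040 CPM in fibroblasts, and did not pass (adjusted p = 0.217). H19 and Dlk1, imprinted genes of early growth, gave 0 of 1599792 UMIs in members, as did Cdkn2a, an inhibitor of the cell cycle, and a count of 0 allows up to 3 UMIs.

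Immune and growth factor receptors had medians of -0.83, -0.92 and -0.81 for NB, 10 M and 18 M over 2 M, ratios that share the 2 M library, and of 0.03 for 18 M over 10 M. Tgfbr3, the type III receptor of TGF-beta, stood at 97.3, 314, 84.5 and 77.1 CPM. Immediate early genes had a median of -0.03 for 18 M over 2 M.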
